A study of Mus musculus with 2 samples.

Results

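The 5-hydroxymethylcytosine (5hmC) signal was examined over 4 mouse genes whose products handle salt, phosphate or protein along the nephron: Umod, Slc12a1, Slc12a3 and Slc34a1. Their windows were set by coordinates on the mouse genome build mm9, not by the values in them. The genes themselves were chosen with earlier results of these data known. They are 4 of the 21900 protein-coding genes in the RefSeq table used here. Genomic DNA came from kidneys of male C57BL/6 mice, an inbred laboratory strain, aged 6 weeks. In hydroxymethylated DNA immunoprecipitation sequencing (hMeDIP-seq) an antibody to 5hmC, here one from Active Motif, recovers DNA fragments that carry the mark. The groups are 1 hMeDIP library, with 11424027 fragments, and 1 input library of the same tissue without antibody, with 8316507 fragments. The number of animals behind the DNA is not stated in the labels, and no treatment or altered gene was named for either library. No library was replicated, so each difference below is between these libraries, with no p-value, and each 95% interval covers counting error only.

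5hmC is made from 5-methylcytosine by the TET enzymes and is often found over the bodies of genes in differentiated tissues. The nephron is a chain of segments, and these genes are known for their activity in 3 stretches of it. Slc34a1 encodes the phosphate transporter NaPi-IIa of the proximal tubule, which takes up phosphate together with sodium. Slc12a1 encodes NKCC2, the sodium, potassium and chloride cotransporter of the thick ascending limb, and the target of loop diuretics. Umod encodes uromodulin, a protein that cells of the thick ascending limb release into urine. Slc12a3 encodes NCC, the sodium and chloride cotransporter of the distal convoluted tubule, and the target of thiazide diuretics. Whole kidney mixes all of these segments with other cells. A low value can therefore mean few cells with the mark or little mark in each cell, which cannot be told apart here. No RNA was analysed here, so the segment of each gene is background and was not checked in these data.

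The sequence just before each gene is shown because CpG dinucleotides, the main sites of cytosine methylation in mammals, are the bases on which the mark can form. Each line gives the 250 bases before the start of the gene from RefSeq on build GRCm38.p6, 5′ to 3′ along the gene, with every CpG in capitals. They lie at chr7:119479263-119479512 on the minus strand for Umod, and on the plus strand at chr2:125152350-125152599 for Slc12a1, chr8:94328958-94329207 for Slc12a3 and chr13:55399398-55399647 for Slc34a1. These coordinates are of another build than the fragments, and the 2 sets were not joined.
Umod: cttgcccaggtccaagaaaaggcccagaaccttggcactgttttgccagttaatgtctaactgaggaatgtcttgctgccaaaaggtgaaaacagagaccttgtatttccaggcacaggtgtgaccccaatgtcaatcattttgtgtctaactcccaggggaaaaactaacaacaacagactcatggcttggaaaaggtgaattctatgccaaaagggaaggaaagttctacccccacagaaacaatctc
Slc12a1: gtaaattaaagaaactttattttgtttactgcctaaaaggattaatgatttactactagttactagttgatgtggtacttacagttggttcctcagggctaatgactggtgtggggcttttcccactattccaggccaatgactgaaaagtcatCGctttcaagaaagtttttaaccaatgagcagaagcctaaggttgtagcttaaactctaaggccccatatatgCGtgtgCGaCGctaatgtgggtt
Slc12a3: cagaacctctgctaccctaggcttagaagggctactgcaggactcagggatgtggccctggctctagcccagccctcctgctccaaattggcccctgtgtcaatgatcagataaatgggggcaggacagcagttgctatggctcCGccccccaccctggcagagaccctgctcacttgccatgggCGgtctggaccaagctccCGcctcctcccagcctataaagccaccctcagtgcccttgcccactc
Slc34a1: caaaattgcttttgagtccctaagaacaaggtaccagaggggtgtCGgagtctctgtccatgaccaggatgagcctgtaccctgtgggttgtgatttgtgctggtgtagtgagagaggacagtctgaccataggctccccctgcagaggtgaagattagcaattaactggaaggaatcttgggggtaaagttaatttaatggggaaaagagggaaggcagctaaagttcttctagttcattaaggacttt

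All 4 stretches held fewer CpG than the median entry, and Umod the fewest. Umod had 0 CpG, Slc34a1 had 1, Slc12a3 had 3 and Slc12a1 had 4, against a median of 6 over the 32851 RefSeq promoter entries of the same length. The motif searched was CG, which reads the same on both strands, and 92.1% of all entries held it at least once. Umod belongs to the 7.87% of entries with none. The share of entries with as many CpG or fewer was 18.8% for Slc34a1, 37.8% for Slc12a3 and 44.4% for Slc12a1, so the last pair were not far below the median. The G and C content was 45.2% for Umod, 39.6% for Slc12a1, 61.2% for Slc12a3 and 46.4% for Slc34a1, against a median of 52.4%. Slc12a3 was thus above the median in G and C but below it in CpG.

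The windows differed in 5hmC, from a level at the genome-wide mean over Umod to 2.39 times that level over Slc12a3. The ratio used throughout sets the share that a region takes of all hMeDIP fragments over its share of all input fragments, so that 1 is the genome-wide mean of these libraries and not a fixed amount of 5hmC. Levels of each library are given as fragments per kb per 1000000 fragments of that library. The CpG content of the windows and of the regions compared with them was not measured, and its part in the ratios was not tested.

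Umod, on chromosome 7 from 126606000 to 126623000, held 104 hMeDIP and 71 input fragments. These are levels of 0.535 for hMeDIP and 0.502 for input, and the ratio was 1.07 (0.781 to 1.46). The uromodulin gene therefore did not stand apart from the genome-wide mean beyond counting error. Scaled to the fragments outside peaks, which multiplies every ratio by 1.32, it stood at 1.41 (1.03 to 1.93), above that other reference.

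Slc12a1, on chromosome 2 from 124978000 to 125056500, is the longest of the 4 and rests on 678 hMeDIP and 334 input fragments. Its levels were 0.756 and 0.512, and its ratio was 1.48 (1.29 to 1.69). NKCC2 DNA was thus moderately above the mean, with the narrowest interval of the 4.

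Slc12a3, on chromosome 8 from 96853000 to 96890500, held 472 hMeDIP and 144 input fragments. Its levels were 1.10 and 0.462, and its ratio of 2.39 (1.98 to 2.90) was the highest of the 4. The input level was the lowest of the 4 and 9.75% below the highest, so input levels spanned far less than hMeDIP levels did.

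Slc34a1, on chromosome 13 from 55501000 to 55516500, held 153 hMeDIP and 61 input fragments. Its levels were 0.864 and 0.473, and its ratio was 1.83 (1.35 to 2.50). It stood between NCC and NKCC2 with a wide interval. In the RefSeq table Pfn3, a profilin gene, overlaps the span of Slc34a1, so fragments in the overlap cannot be given to either gene.

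**Figure D1:**
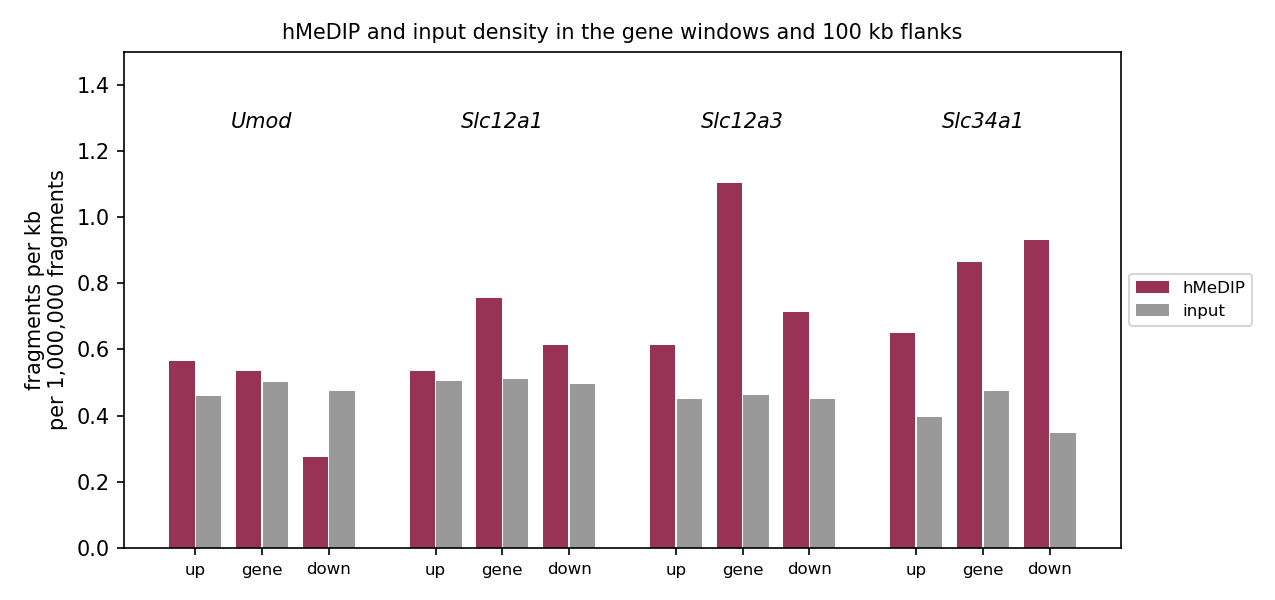
Bars give the fragments per kb per 1000000 fragments of the hMeDIP (red) and input (grey) libraries in the 100 kb upstream, in the gene window and in the 100 kb downstream of each gene, 1 library each. Input bars lie between 0.346 and 0.512, while hMeDIP bars run from 0.274 downstream of Umod to 1.10 over Slc12a3.

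In the order Slc12a3, Slc34a1, Slc12a1, Umod, neighbours were not separated beyond counting error, while members farther apart were in part. Over the 6 pairs, with intervals at the 99.17% level to allow for 6 comparisons, Slc12a3 was 1.61-fold (1.19 to 2.19) above Slc12a1 and 2.24-fold (1.39 to 3.60) above Umod. No other pair had an interval that excluded 1. Slc12a3 over Slc34a1 was 1.31 (0.818 to 2.10), Slc34a1 over Slc12a1 was 1.23 (0.796 to 1.90), Slc34a1 over Umod was 1.71 (0.968 to 3.01) and Slc12a1 over Umod was 1.39 (0.892 to 2.16). These intervals leave room for differences of 1.90-fold or more, so they do not show that those genes were alike. With the fragments inside called peaks left out, which lowers the genes with more peaks by construction, 0 pairs had an interval that excluded 1.

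The genes were next set against the autosomes, divided into tiles of the length of each window, with at least 20 input fragments a tile. The tiles were cut without regard to genes, so their shares are not those of gene bodies, which were not measured. A tile or window was called high where its log2 ratio was at least 0.5 with an interval above 1. Slc12a1, Slc12a3 and Slc34a1 were high, with log2 ratios of 0.56, 1.25 and 0.87, and Umod was not, at 0.09. So 3 of 4 members were high, where 22.7% of tiles of the Umod length, 22.9% of the Slc12a1 length, 22.5% of the Slc12a3 length and 22.8% of the Slc34a1 length were. With a log2 threshold of 1, Slc12a3 alone passes, where 11.8%, 10.4%, 10.9% and 12.0% of the tiles of the Umod, Slc12a1, Slc12a3 and Slc34a1 lengths do. The low call, the mirror image, held for 0 members, against 47.7%, 48.5%, 49.3% and 47.0% of the tiles of those lengths in the same order.

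Slc12a3 lay above 93.2% of 62120 tiles of its length, and Slc34a1 above 85.4% of 145617. Slc12a1 lay above 79.0% of 29938 tiles and Umod above 66.1% of 133681. Umod, at the mean of all fragments, was above the median tile of its length, at 0.715. The ratios of the chromosomes themselves were close to 1, from 0.997 (0.993 to 1.0) for chromosome 13 to 1.07 (1.06 to 1.07) for chromosome 8. Against the rest of its own chromosome Slc12a3 was at 2.23 (1.85 to 2.69), Slc34a1 at 1.82 (1.36 to 2.45), Slc12a1 at 1.46 (1.28 to 1.67) and Umod at 1.01 (0.746 to 1.36).

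**Figure D2:**
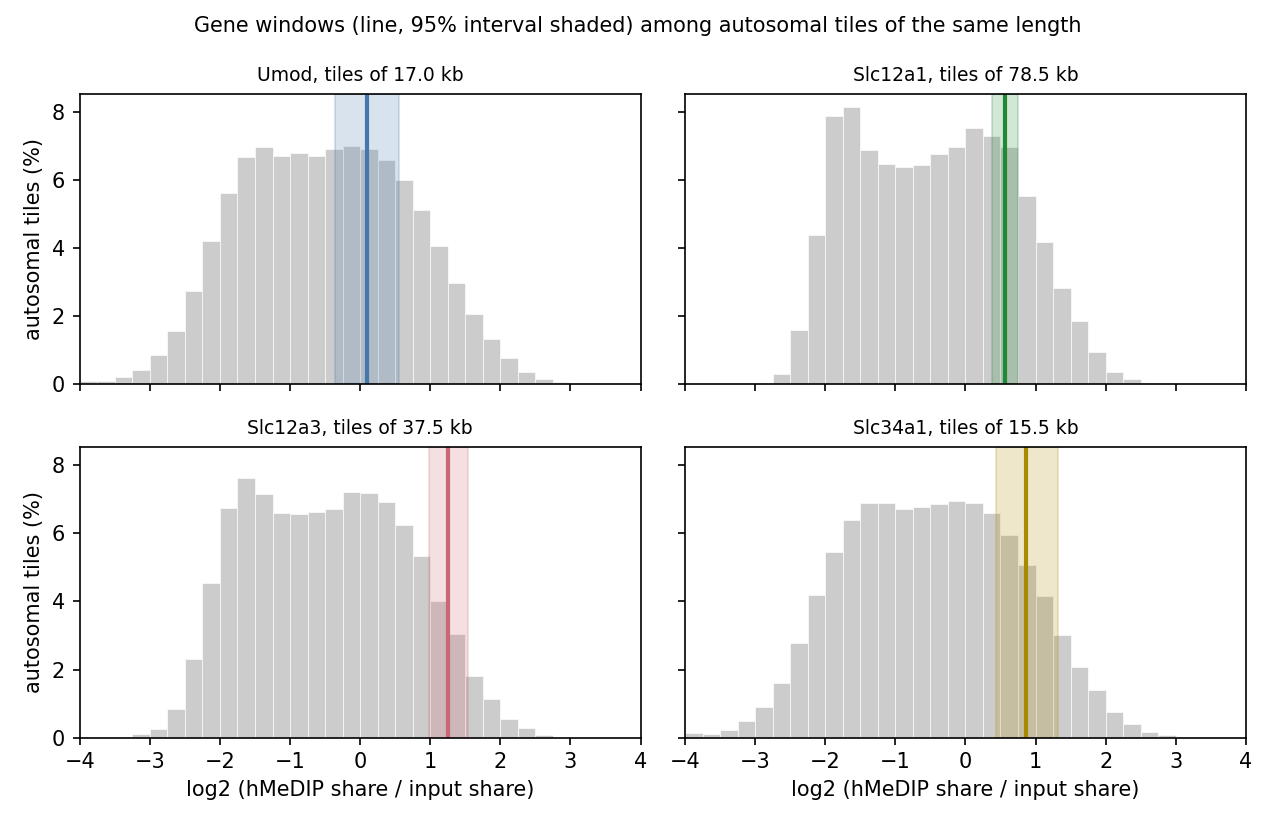
Grey bars give the percentage of autosomal tiles in each class of the log2 ratio, for tiles of the length of each gene window, and the coloured line with its shaded 95% counting interval gives the gene itself. Slc12a3 at 1.25 sits in the upper tail, above 93.2% of tiles, and Umod at 0.09 sits above the median tile, higher than 66.1%.

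The surroundings of the genes differed as much as the genes. Each window was compared with the 100 kb before and the 100 kb after it as an odds ratio of hMeDIP to input fragments, in which the library totals cancel. Upstream and downstream follow the direction of the gene. The NCC and NKCC2 genes were higher than their 2 flanks pooled, and Umod and Slc34a1 were not separated from theirs. Thus 2 of 4 windows were higher, where 13.6% of tiles of the Umod length, 19.3% of the Slc12a1 length, 16.4% of the Slc12a3 length and 13.3% of the Slc34a1 length were higher than their own flanks. No window was lower than both flanks together, against 18.2%, 25.0%, 21.8% and 17.8% of tiles.

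Slc12a3 was 1.62-fold (1.32 to 1.99) above its flanks, which held 1515 hMeDIP and 749 input fragments at a ratio of 1.47 (1.35 to 1.61). It was above the upstream side by 1.74-fold (1.39 to 2.18) and above the downstream side by 1.51-fold (1.21 to 1.89). The difference shrank to 1.29-fold (1.04 to 1.61) when flanks of 50 kb were used. The high signal did not end with the gene. In the 10 kb steps after the gene the ratios were 2.12, 2.69, 3.06 and 2.21, and then 1.13 and 0.890. Over the first 40 kb, a stretch chosen after these values were seen, the ratio was 2.55 (2.13 to 3.07), and from 40 to 100 kb it was 0.890 (0.742 to 1.07). Against the nearest 50 kb downstream, a stretch not set by these steps, the window was at 1.06 (0.830 to 1.36), and against the 50 kb beyond at 2.87 (2.18 to 3.77). NCC DNA was thus not separated from the 50 kb that follows it. In the RefSeq table the next genes there are Herpud1, a gene of the response to misfolded proteins in the endoplasmic reticulum, and Nlrc5, a regulator of antigen presentation genes. Their borders on mm9 were not used.

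Slc12a1 was 1.29-fold (1.10 to 1.51) above its flanks, which had a ratio of 1.14 (1.05 to 1.25) from 1310 hMeDIP and 833 input fragments. The step was clearest at the 5′ side, where the nearest 50 kb upstream had a ratio of 0.817 (0.674 to 0.991) and held 0 peaks. The window was 1.81-fold (1.44 to 2.27) above that stretch. Farther out, at 50 to 100 kb upstream, the ratio was 1.28 (1.08 to 1.52), and the nearest 50 kb downstream stood at 1.33 (1.11 to 1.60). The window was not separated from either, at 1.15 (0.931 to 1.42) and 1.11 (0.892 to 1.38) of them. It was 1.28-fold (1.04 to 1.59) above the stretch at 50 to 100 kb downstream. With fragments in peaks left out on both sides, the window over the 100 kb flanks was 1.15 (0.974 to 1.36), which no longer excludes 1. Peaks covered more of the window, 8.45%, than of the flanks, 2.98%, so leaving them out lowers this value by construction.

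The sides of Umod differed from each other. Its upstream flank had 644 hMeDIP against 383 input fragments, at a ratio of 1.22 (1.08 to 1.39), its downstream flank 313 against 395, at a ratio of 0.577 (0.496 to 0.671). The upstream side was 2.12-fold (1.74 to 2.58) above the downstream side. Umod itself was 0.870 (0.628 to 1.21) of the upstream side and 1.84-fold (1.32 to 2.58) above the downstream side, and 1.19 (0.867 to 1.63) of both together. Downstream, the part of the flank next to Umod was closer to it than the far part. Upstream this did not hold, with ratios of 1.31 (1.09 to 1.58) in the nearest 50 kb and 1.14 (0.952 to 1.37) at 50 to 100 kb. Umod was 0.811 (0.571 to 1.15) and 0.933 (0.658 to 1.32) of these, separated from neither. In the 10 kb steps going upstream the ratios were 0.728, 1.01 and 1.09, then 2.0, 2.07 and 1.26, then 0.939, 0.896 and 0.867, and 1.71 in the last, so the upstream excess lay in separate stretches that hold its peaks. Downstream the ratio was 0.797 (0.643 to 0.989) in the first 50 kb and 0.414 (0.331 to 0.516) at 50 to 100 kb. With flanks of 50 kb on both sides Umod was at 0.997 (0.717 to 1.39) of them. RefSeq places Gp2, which encodes a relative of uromodulin, next on the downstream side and Pdilt, a disulfide isomerase gene of the testis, next on the upstream side.

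Slc34a1 stood in a stretch that was itself rich in 5hmC, and the far part of its downstream flank was higher than the gene. Both flanks together had a ratio of 2.13 (1.95 to 2.34) from 1805 hMeDIP and 616 input fragments, the highest of the 4 genes. The window was 0.852 (0.625 to 1.16) of them. It was 1.10 (0.799 to 1.53) of the upstream side and 0.677 (0.490 to 0.935) of the downstream side, whose ratio was 2.69 (2.36 to 3.07). The window was 0.838 (0.587 to 1.20) of the nearest 50 kb downstream, which does not separate them. It was 0.585 (0.415 to 0.824) of the stretch at 50 to 100 kb, whose ratio was 3.12 (2.62 to 3.73). Input was thinner there than in the gene, at levels of 0.394 upstream and 0.346 downstream against 0.473 in the window, and the part of this in the ratios was not tested. Several genes crowd these flanks in the RefSeq table: F12, coagulation factor XII, follows Slc34a1, and Rgs14, a regulator of G protein signalling, precedes it.

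**Figure D3:**
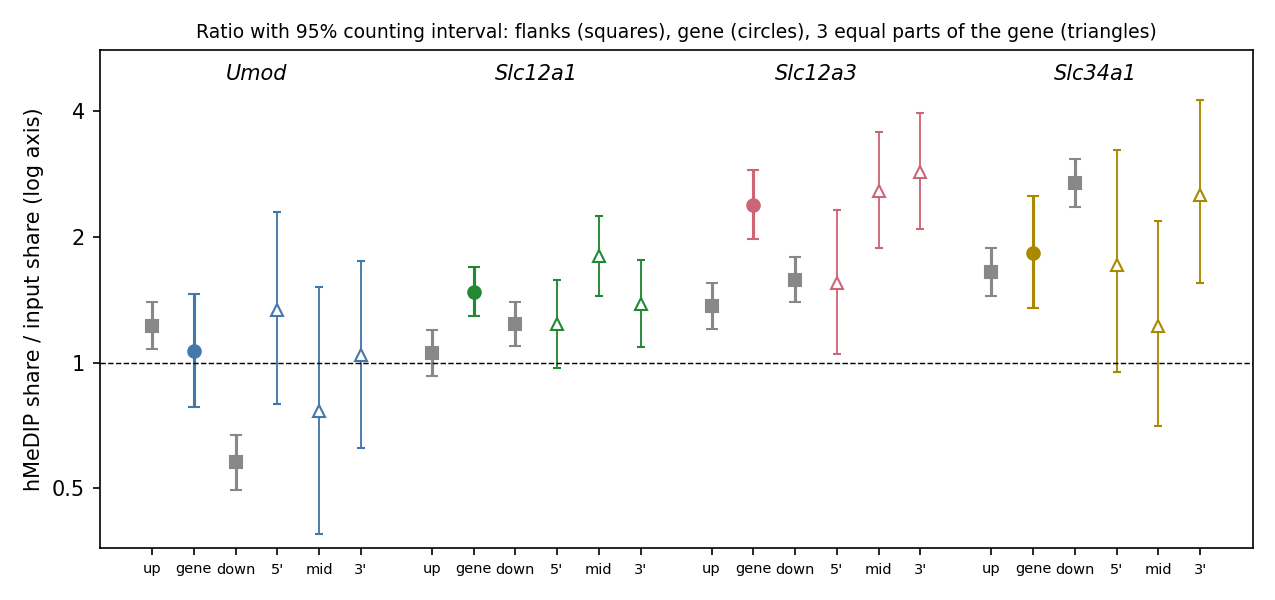
Points give the ratio of the hMeDIP share to the input share on a log axis with 95% counting intervals, for the 100 kb upstream and downstream of each gene (squares), the gene window (filled circles) and its 5′, middle and 3′ parts (open triangles). Slc12a3 at 2.39 stands above both of its flanks, Slc34a1 at 1.83 lies below its downstream flank at 2.69, and Umod at 1.07 lies between its flanks at 1.22 and 0.577.

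The starts of the genes did not stand apart from the genome-wide mean. The windows are 387 to 1008 bp longer than the RefSeq genes, so the first 2 kb hold the start of each gene if the window encloses it. These 2 kb held 0 peaks in any of the 4. Umod had 19 hMeDIP and 8 input fragments there, a ratio of 1.73 (0.723 to 4.57). Slc12a1 had 13 and 9, a ratio of 1.05 (0.416 to 2.79). Slc12a3 had 18 and 8, a ratio of 1.64 (0.678 to 4.35). Slc34a1 had 12 and 6, a ratio of 1.46 (0.506 to 4.73). All 4 intervals span 1, and at this depth a 2-fold difference from the mean at a gene start was not detectable.

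Each window was then cut into 3 equal parts. Slc12a3 was lower at its 5′ end, at 1.55 (1.05 to 2.31) with 85 hMeDIP and 40 input fragments, than in the middle, at 2.57 (1.88 to 3.55) with 187 and 53, and at the 3′ end, at 2.85 (2.09 to 3.96) with 200 and 51. The 5′ part was 0.542 (0.334 to 0.879) of the 3′ part. NCC 5hmC therefore leaned to the 3′ side, the side of the high stretch that follows the gene.

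Slc12a1 was highest in the middle, at 1.79 (1.44 to 2.25), with 1.24 (0.970 to 1.58) in the 5′ and 1.38 (1.09 to 1.76) in the 3′ part. The middle was 1.45-fold (1.05 to 2.0) above the 5′ part and 1.30-fold (0.946 to 1.78) above the 3′ part. Slc34a1 was highest at the 3′ end, at 2.51 (1.55 to 4.25), with 1.71 (0.949 to 3.22) in the 5′ and 1.22 (0.704 to 2.18) in the middle part. Its middle was 0.490 (0.243 to 0.990) of its 3′ part. Umod had 1.33 (0.794 to 2.29), 0.766 (0.388 to 1.52) and 1.04 (0.626 to 1.75) from 5′ to 3′, and no pair of its parts differed beyond counting error.

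An interval above 1 was found in 6 of the 12 parts: all 3 of Slc12a3, the middle and 3′ parts of Slc12a1, the 3′ part of Slc34a1 and none of Umod. Autosomal tiles as long as such a part were kept with at least 1 input fragment, a looser rule than for tiles of window length. The 12 parts held 17 to 116 input fragments, so the tile shares can include stretches with thinner input than any part. Shares among tiles of similar input were not measured. Among the tiles kept, an interval above 1 was found in 16.9% for the Umod parts and 25.5% for the Slc12a1 parts. For the Slc12a3 and Slc34a1 parts it was found in 21.3% and 16.3% of tiles. With fragments in peaks left out and the scaling to all fragments kept, which lowers parts rich in peaks by construction, 2 parts had one. With all fragments counted and scaled to the fragments outside peaks, 9 had one.

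Finer steps of 2 kb, of which those with at least 5 input fragments were counted, describe the ratio along each gene. Counting error is large in such steps, and the spread among them was not tested against it. The interval lay above 1 in 7 of 15 steps of Slc12a3, 6 of 35 of Slc12a1, 1 of 7 of Slc34a1 and 0 of 7 of Umod, against 9.96% of all such autosomal steps. In Slc12a3 the highest of these steps was at 18 to 20 kb from the 5′ edge, with 38 hMeDIP against 6 input fragments, at a ratio of 4.61 (1.93 to 13.3), and the lowest at 6 to 8 kb, with 5 and 9 and a ratio of 0.404 (0.106 to 1.34). The lowest step lies in the 5′ part, between the first peak and the second.

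In Slc12a1 the highest step, at 64 to 66 kb, had 41 hMeDIP against 5 input fragments, at a ratio of 5.97 (2.36 to 19.4), and the lowest, at 4 to 6 kb, had 2 and 8 and a ratio of 0.182 (0.0188 to 0.912). Among the counted steps of the 4 genes that was the only one whose interval lay below 1, against 19.4% of autosomal steps. It was picked as the lowest of 35 steps and rests on few fragments. The highest was picked from the same 35 and rests on 5 input fragments, the fewest that were counted. The extreme steps of the other genes were picked in the same way. In Slc34a1 the highest step, at 12 to 14 kb, reached 3.11 (1.59 to 6.65) from 47 and 11 fragments, and the lowest, at 8 to 10 kb, 1.05 (0.416 to 2.79). In Umod the ratio was 0.728 in each of the 3 steps from 6 to 12 kb, the lowest, and 1.73 in the first step, the highest, each within counting error of 1.

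**Figure D4:**
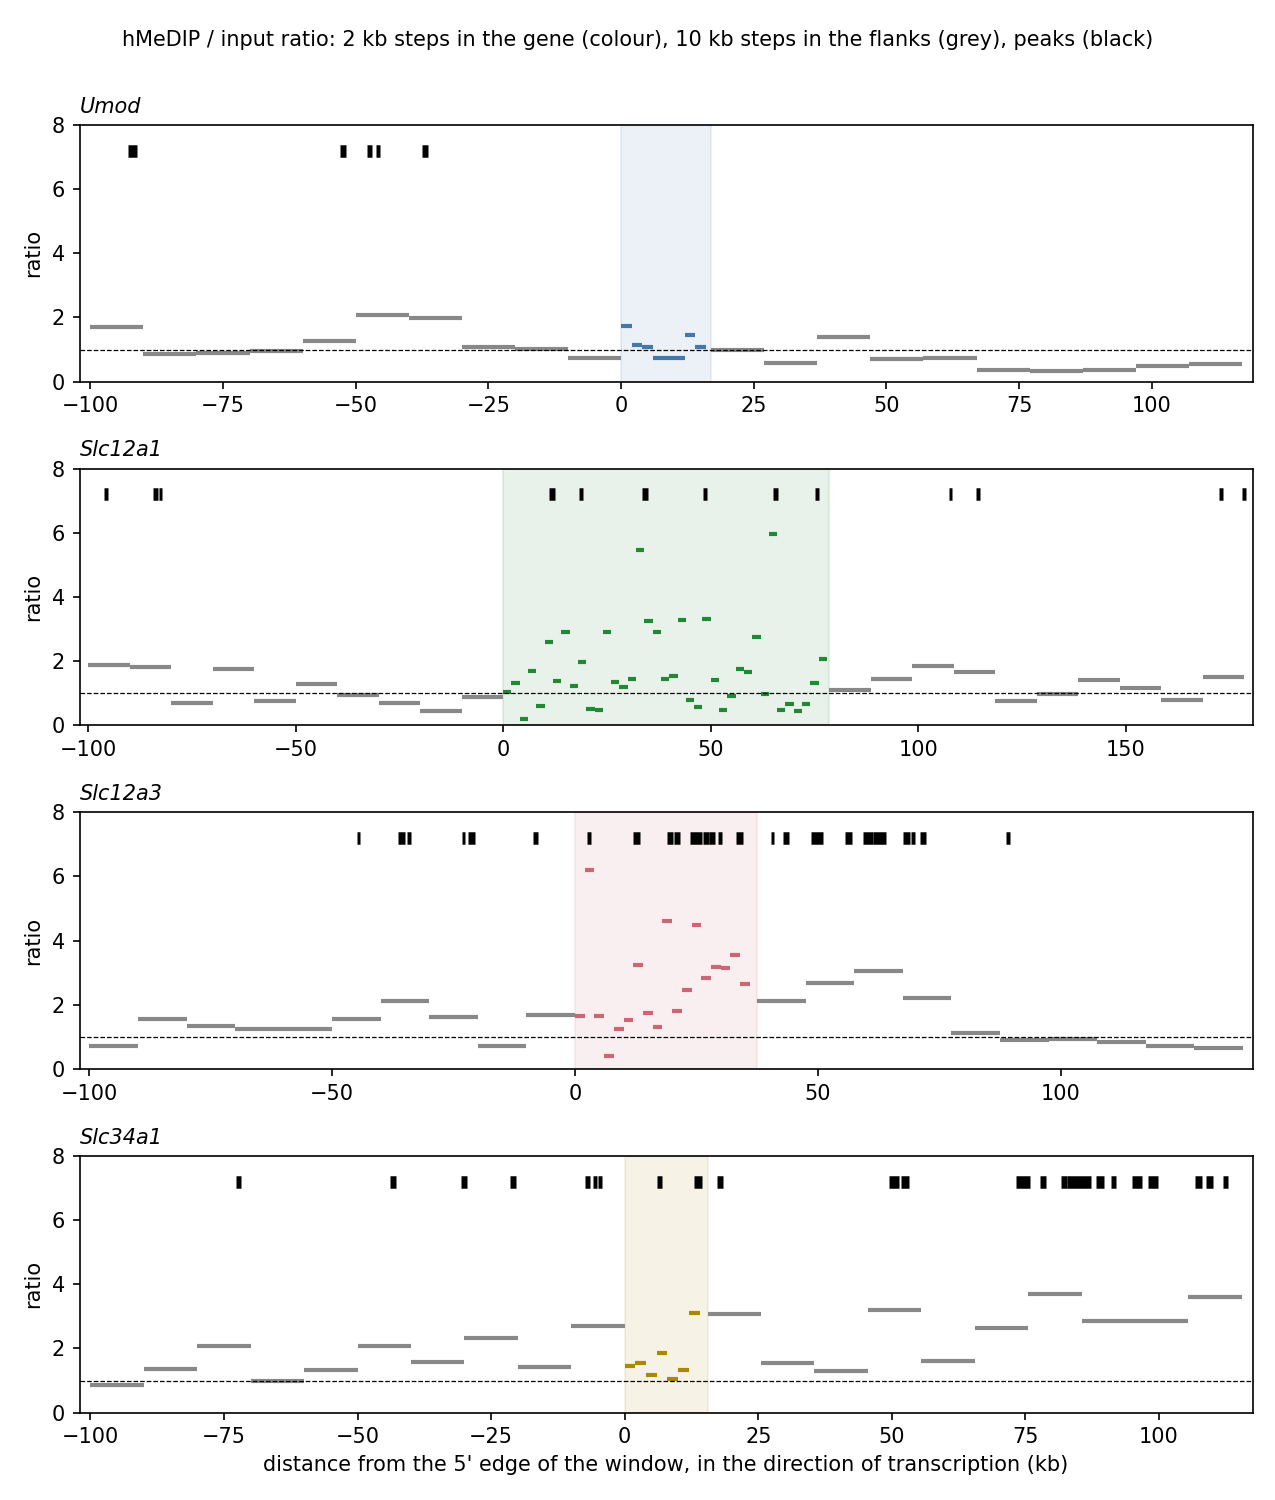
Horizontal bars give the ratio of the hMeDIP share to the input share by distance from the 5′ edge of each window, in 2 kb steps in the gene (coloured, window shaded) and 10 kb steps in the flanks (grey), with called peaks as black marks near the top and the genome-wide mean as a dashed line. Bars over thin input are imprecise: the tallest bar of Slc12a3 rests on 2 input fragments. The high stretch of Slc12a3 continues 40 kb past the gene, Umod holds 0 peaks, and the peaks of Slc12a1 are spaced out.

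The authors' peak list placed 17 peaks in the 4 windows, counting any overlap. The header of the list carries a sample name that is not explained, so whether the peaks were called on this hMeDIP library alone is not known, and peak counts, cover and scores are given with that limit. There were 9 in Slc12a3, 6 in Slc12a1, 2 in Slc34a1 and 0 in Umod. Per 100 kb this was 24.0, 7.64, 12.9 and 0 in the same order, so Slc12a1 had fewer for its length than Slc34a1. At least 1 bp of peak lay in 3 of 4 windows, against 31.5% of tiles of the Umod length, 52.5% of the Slc12a1 length, 42.0% of the Slc12a3 length and 30.5% of the Slc34a1 length. Peaks covered 31.7% of Slc12a3, 14.1% of Slc34a1 and 8.45% of Slc12a1. In that order, 95.9%, 86.6% and 80.0% of tiles of the same length were less covered. The 46327 peaks with the highest scores, out of 92654 in the list, included 7 of the 17. These were 4 in Slc12a3, 2 in Slc12a1, 1 in Slc34a1 and 0 in Umod. The list is titled as hMeDIP peaks, so their enrichment is a description, and an interval above 1 in 17 of 17 stands beside 97.8% of the whole list. The peak score is the authors' own, with its definition not given, and is used to rank peaks within the list.

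The 3 peaks of Slc12a3 with the highest scores lay in the middle and 3′ parts. The first, from 96876657 to 96879184, was the widest peak in any of the 4 windows at 2528 bp, with a score of 143.09, 53 hMeDIP against 8 input fragments, and its ratio was 4.82 (2.28 to 11.7). The second, from 96871953 to 96873214, scored 122.19 with a ratio of 4.16 (1.84 to 11.0). The third, from 96879307 to 96880521, scored 106.49 with a ratio of 4.0 (1.66 to 11.7). Its peaks were crowded, with 4 of the gaps between them under 1 kb and the smallest at 50 bp, so that merging within 1000 bp left 5 groups. The peak nearest the 5′ end, from 96855469 to 96856261, had 14 hMeDIP and 0 input fragments, 3.40-fold higher against a floor of 3 input counts, and the lower limit of its exact interval was 2.41.

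Slc12a1 had its peaks apart from each other, with gaps of 5826 bp or more and a longest gap of 15.9 kb. The highest score, 149.55, belonged to the peak from 125011427 to 125012834, with 39 hMeDIP against 3 input fragments, at a ratio of 9.46 (3.01 to 47.9). The next, from 125042941 to 125044188, scored 128.18 with a ratio of 7.77 (2.43 to 39.6), and the third, from 125026126 to 125027020, scored 65.36 with a ratio of 4.19 (1.43 to 16.7). The other 3 scored 51.1 to 64.51.

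Slc34a1 had a peak near its 3′ end, from 55514036 to 55515411, with a score of 167.18, 41 hMeDIP against 7 input fragments, at a ratio of 4.26 (1.89 to 11.3). Its score was the highest in the 4 windows and lay in the top 17.1% of the list. The other, from 55507085 to 55507892, scored 54.03 with a ratio of 3.09 (1.01 to 12.6).

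Peaks did not hold all of the signal. In Slc12a3, 57.0% of hMeDIP and 34.0% of input fragments lay in peaks, and outside them the ratio was still 1.56 (1.21 to 2.01). In Slc12a1 the shares were 24.8% and 8.08%, and the ratio outside was 1.21 (1.05 to 1.40). In Slc34a1 they were 37.9% and 18.0%, and the ratio outside was 1.38 (0.972 to 1.99), which spans 1. These outside ratios are still scaled to all fragments. Of those, 28.3% of hMeDIP and 5.37% of input lay in peaks, so the mean outside peaks is below 1 on this scale. An interval that spans 1 is therefore not a comparison with the mean outside peaks. Inside the peaks the pooled ratios were 4.53 (3.0 to 7.08) for Slc12a1, 4.0 (2.94 to 5.54) for Slc12a3 and 3.84 (1.99 to 8.11) for Slc34a1. Peaks are stretches chosen for high hMeDIP signal, so these values describe the peaks and do not compare the genes.

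The strongest peaks of the surroundings were downstream of the transporter genes and upstream of Umod. Next to Slc34a1 it was the peak from 55583864 to 55588311, 4448 bp wide, with a score of 301.61, 115 hMeDIP against 23 input fragments, at a ratio of 3.64 (2.31 to 5.97), at 69.6 kb from the window. Next to Slc12a3 it spanned 96914311 to 96917054, 25.2 kb away, with a score of 259.73 and a ratio of 4.42 (2.54 to 8.21). Those of Slc12a1, from 125092013 to 125092851, and of Umod, from 126669925 to 126670877, scored 96.24 and 100.21. In all, the flanks held 21 peaks around Slc34a1, 16 around Slc12a3, 7 around Slc12a1 and 5 around Umod, each of the last on the upstream side.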

How the data were processed

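CASAVA, Bowtie 1.0.0 and build mm9 are named, with no settings, in the submitters' processing notes for both libraries. The deposited position files give stretches of 350 bp with a read count each, which were read from the values as extended fragments. The count was used only in a reads-weighted alternative. Lines of another length numbered 18 and 163. The authors' peak list carries a score and is titled as MACS peaks, per the file headers. What version, control and cutoff MACS had is not given in the sources used here.

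Fragments were assigned by midpoint. Ratios carry exact conditional binomial (Clopper-Pearson) intervals, and odds ratios carry Woolf intervals with 0.5 added to each count. As the reads carry no molecular identifiers, they may repeat a molecule, and intervals cover counting error only. Coordinates are 1-based. The 4 members, the peaks with the 3 highest scores per window and the 1 highest per pair of flanks, and the highest and lowest 2 kb steps with at least 5 input fragments were named by rule. The members and lists were chosen with earlier results of these data known. Other nephron genes were not measured, since gene coordinates on mm9 were not used here. Gene order, direction and promoters came from RefSeq on GRCm38.p6, where 4 of 4 symbols matched. Calls were also run on simulated Poisson counts at the input counts of the tiles. These hold counting error only, so they cannot test the calls against variation between libraries. Python 3.11.15, numpy 2.4.6, scipy 1.17.1 and pandas 2.3.3 were used. Alternatives changed the scaling, counting, fragment length, windows, flanks, peaks and thresholds.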

Additional observations from a re-analysis of the deposited data

How the results depend on the processing

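Among 92 recomputed values, 77 lay inside the main interval or within 1.5 times the main count, 15 moved, and 0 of the called values changed direction. A value inside the main interval could still lose or gain its call. With fragments in peaks left out, Slc34a1 at 1.38 (0.972 to 1.99) no longer excluded 1. Nor did Slc12a1 over its flanks at 1.15 (0.974 to 1.36). Slc34a1 over its flank of higher coordinates alone, at 0.677 (0.490 to 0.935), did exclude 1. The alternatives for parts of windows and pairs were chosen after seeing the data. Scaling to the fragments outside peaks multiplies every ratio by 1.32. It gave 1.95 for Slc12a1 and 3.15 for Slc12a3, gave Umod 1.41 (1.03 to 1.93), which excludes 1, and raised the share of high tiles to 34.7% at the Slc12a1 length and 33.8% at the Slc12a3 length. Leaving out fragments in peaks, with ratios still scaled to all fragments, gave 1.21 for Slc12a1 and 1.56 for Slc12a3. It left 2 parts above 1 in place of 6 and 0 separated pairs in place of 2. Flanks of 50 kb gave 1.29 for Slc12a3, and flanks of 200 kb gave Umod 1.36 (1.002 to 1.86), which excludes 1. Against the flank of lower coordinates alone Umod was at 1.84. The 46327 peaks with the highest scores, out of 92654 in the list, included 7 in place of 17. A log2 threshold of 1 gave 11.8%, 10.4%, 10.9% and 12.0% high tiles at the Umod, Slc12a1, Slc12a3 and Slc34a1 lengths.

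No paired analysis was possible because each group has 1 library. For the same reason none was left out. Depth limits the short genes most: Umod rests on 71 and Slc34a1 on 61 input fragments. The extension to 350 bp is read from the values, and a peak or step edge is no sharper than that length.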

Other observations

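The number of reads per position was not used in the ratios. Over the 4 windows 17 of 1407 hMeDIP positions held 2 reads, 1.21% (0.705 to 1.93), and 2 of 610 input positions, 0.328% (0.0397 to 1.18), with intervals that overlap. No position held more than 2 reads.

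The longest stretches without a peak inside the 3 transporter genes gave ratios from 1.15 to 1.41. In Slc12a1 that stretch ran from 125027021 to 125042940, 20.3% of the window, with 136 hMeDIP against 70 input fragments, at a ratio of 1.41 (1.05 to 1.92). In Slc12a3 it ran from 96856262 to 96865026 with 49 and 29 fragments and a ratio of 1.23 (0.762 to 2.02). In Slc34a1 it ran from 55507893 to 55514035 with 38 and 24 and a ratio of 1.15 (0.674 to 2.01).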
